A study of Mus musculus with 8 samples.

Results

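The cGAS-STING pathway and its neighbours among the nucleic acid sensors were followed across fibroblasts that lack or regained Daxx. The genes were listed by symbol: Cgas, Tmem173 (written Sting1 in the platform annotation and below), Tbk1, Irf3, Trex1, Mavs, Ifih1, Zbp1 and Enpp1. Of these 9 symbols, 8 had a probe set that the annotation assigned to 1 gene symbol, out of 19938 genes with such a probe set. Enpp1 was not analysed here. The genes were chosen by name with earlier results of these data known, and a probe set was to be chosen by its mean log2 signal over the 8 arrays. Each of the 8 genes had 1 probe set, so that mean decided nothing. It ran from 6.42 to 9.13 and is given as a description only.

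The samples were 8 expression arrays of mouse embryonic fibroblasts with a Daxx knockout on the FVB/N background, which the control cells carried too. The controls were complemented with vector (4 arrays), and the other cells with Daxx, as DaxxA (2 arrays) or DaxxB (2 arrays). The labels say neither what A and B stand for, nor which promoter drove Daxx, nor whether a line was 1 clone, nor whether replicates were cultured separately. A p-value here thus reflects the spread among these arrays alone, which may be technical. The series set out to find genes regulated downstream of Daxx, a chaperone of the histone variant H3.3.

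In this pathway the enzyme cGAS binds double-stranded DNA in the cytosol and makes the cyclic dinucleotide cGAMP, which binds STING on the endoplasmic reticulum. STING then recruits the kinase TBK1, which phosphorylates the transcription factor IRF3 and so starts transcription of type I interferon and other antiviral genes. MDA5, the product of Ifih1, senses long double-stranded RNA and signals through the adaptor MAVS to the same kinase, ZBP1 binds Z-form nucleic acids and can start necroptosis, and the exonuclease TREX1 removes cytosolic DNA.

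The promoters of 3 genes are shown because the results turn on them: Cgas had the largest difference of the 8 genes, Ifih1 is both a sensor and an interferon-stimulated gene, and Ifit1 is an IRF3 target that fell. Each window runs from 250 bases before to 50 bases after the start of the gene, 5′ to 3′ on the gene's strand, from RefSeq on GRCm38.p6. Capitals mark matches, on either strand, to the core of the interferon-stimulated response element, written here as GAAA, any 2 bases and GAAA.
Cgas, chr9:78443188-78443487, minus strand: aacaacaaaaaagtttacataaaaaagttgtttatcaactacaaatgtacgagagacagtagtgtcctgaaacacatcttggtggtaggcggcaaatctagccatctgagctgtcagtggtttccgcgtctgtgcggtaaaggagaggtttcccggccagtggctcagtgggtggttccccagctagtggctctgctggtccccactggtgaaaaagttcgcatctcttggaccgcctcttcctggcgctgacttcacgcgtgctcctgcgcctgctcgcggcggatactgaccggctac
Ifih1, chr2:62646206-62646505, minus strand: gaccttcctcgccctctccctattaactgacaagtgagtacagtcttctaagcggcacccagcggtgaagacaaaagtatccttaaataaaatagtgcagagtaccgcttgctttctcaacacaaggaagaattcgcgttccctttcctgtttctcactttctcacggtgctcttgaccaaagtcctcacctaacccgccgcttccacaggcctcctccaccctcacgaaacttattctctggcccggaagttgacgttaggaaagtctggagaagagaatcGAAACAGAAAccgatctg
Ifit1, chr19:34640639-34640938, plus strand: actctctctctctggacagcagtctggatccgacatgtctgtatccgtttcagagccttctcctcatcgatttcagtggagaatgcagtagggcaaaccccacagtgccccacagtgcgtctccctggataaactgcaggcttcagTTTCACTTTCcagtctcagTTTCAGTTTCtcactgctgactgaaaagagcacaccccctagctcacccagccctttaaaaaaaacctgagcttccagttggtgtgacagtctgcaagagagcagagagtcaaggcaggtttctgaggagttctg
The Ifih1 match began 32 bases after the start, and the Ifit1 matches began 104 and 85 bases before it. The element's letters are not in the Cgas window. Over all 32851 windows of the same length, 3.44% held the element.

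Windows were given for 6 of the 8 genes, Cgas, Tbk1, Irf3, Trex1, Mavs and Ifih1, and Zbp1 and Sting1 are named only. Ifih1 was the 1 gene of the 6 with a match to the response element. None of the 6 held TTCNNNGAA, the core of the gamma-activated site, which 8.3% of all windows held. The GC box GGGCGG was found for 4 of the 6 on either strand, Irf3, Mavs, Tbk1 and Trex1, and in 35.7% of all windows. A gene was counted if any of its windows matched, whereas the shares over all windows count each window once. By gene, 92 of 133 other pathway genes (69.2%) held the GC box. Among the interferon target genes described below, 11 of 18 with a window held the response element. A match is a run of letters and shows no binding.

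Before the results, 1 array has to be named. Vector replicate 2 had an interquartile range of 2.79 over all probe sets, against 3.31 to 3.39 on the other 7 arrays, and a median over olfactory receptor genes of 5.21 against 4.65 to 4.70. Calls that change without it are given with and without it. The Daxx probe set itself differed by 0.20 (SE 0.107, limma adjusted p = 0.46), or by 0.096 without vector replicate 2 (adjusted p = 0.399), and did not separate the conditions. The directions below therefore rest on the labels. All 8 sensing genes had a mean above 6.07, the 95th percentile of olfactory receptor genes, which serve as a rough guide to background. Fibroblast markers averaged 9.54 to 9.59 on the vector arrays and 9.36 to 9.48 on the Daxx arrays, with 12 of 13 above that guide. Of these 13 markers 3 fell and 1 rose by limma (30.8% called, against 4.52% of all genes). Their part in the results below was not tested. Macrophage and blood markers had 5 of 12 above it, and averaged 5.73 to 5.76 on 3 vector arrays, 6.09 on vector replicate 2 and 5.73 to 5.83 on the Daxx arrays. None of these 12 was called by limma, and 0 of them had an unadjusted p below 0.05.

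The first comparison asked which sensing genes had a different signal where cells had received Daxx rather than vector. Cgas, the DNA sensor, fell, and Sting1, the receptor of its product, rose. The other 6 genes did not pass the test. Genes were called at a Benjamini-Hochberg adjusted p below 0.05 in limma, adjusted over all 19938 genes, and values are log2 signals. By this rule 2 of the 8 genes were called, 1 in each direction, and 4.52% of all genes (902 genes), of which 358 rose (1.8% of all genes) and 544 fell (2.73%). The median difference was -0.028 for the 8 and -0.028 over all genes, and without vector replicate 2 it was -0.028 for the 8 and 0.015 over all genes. With 8 genes, each is described on its own.

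Cgas read 8.05, 7.85, 8.02 and 8.08 on the vector arrays, 7.17 and 7.11 on the DaxxA arrays, and 6.68 and 6.85 on the DaxxB arrays. All 4 Daxx values lay below all 4 vector values, and both DaxxB values lay below both DaxxA values. The mean was 7.998 ± 0.103 (SD, n = 4) in vector and 6.95 ± 0.229 (SD, n = 4) in Daxx. Cgas fell by 1.04 on the log2 scale (SE 0.113, 95% interval -1.30 to -0.79, adjusted p = 0.00114), a 2.06-fold change that left 48.5% of the vector signal. It was the 40th lowest difference of all genes, and 0.241% of all genes were called with a fall of at least 2-fold. Without vector replicate 2, the lowest of the vector values, Cgas fell by 1.09 (adjusted p = 5.75e-05). In bulk RNA, fewer cells that express a gene and less of its RNA per cell cannot be told apart.

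Sting1, which carries the signal from cGAMP to the kinase, went the other way. It read 8.91, 8.81, 9.02 and 8.97 on the vector arrays and 9.30, 9.33, 9.33 and 9.37 on the Daxx arrays. All Daxx values lay above all vector values, and they lay within a narrower range than the vector values. The mean was 8.93 ± 0.0908 (SD, n = 4) in vector and 9.33 ± 0.0275 (SD, n = 4) in Daxx. Sting1 rose by 0.41 (SE 0.058, 95% interval 0.28 to 0.54, 1.33-fold, adjusted p = 0.00522). Of the 358 genes that rose, 129 had a difference at least as high. Without vector replicate 2 the rise was 0.37 (adjusted p = 0.000339).

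**Figure D1:**
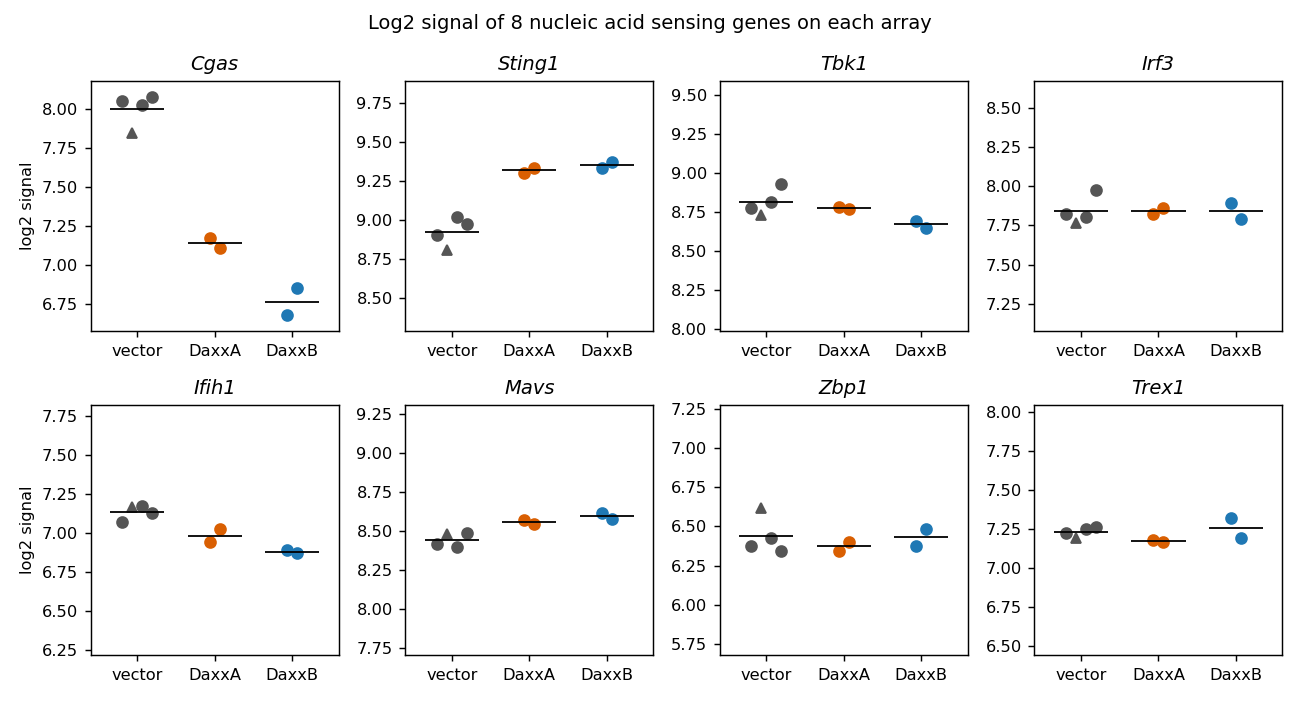
Log2 signal (vertical axis, 1.6 log2 units in every panel) of 8 nucleic acid sensing genes on the 4 vector, 2 DaxxA and 2 DaxxB arrays; each point is 1 array, the triangle is vector replicate 2 and the bar is the group mean. Cgas falls from 7.85 to 8.08 on the vector arrays to 6.68 to 7.17 on the Daxx arrays, Sting1 is higher on all Daxx arrays, and Irf3 lies between 7.77 and 7.98 throughout.

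The kinase and the transcription factor below STING did not pass. Tbk1 read 8.73 to 8.93 on the vector arrays, 8.79 and 8.77 on the DaxxA arrays and 8.70 and 8.65 on the DaxxB arrays. Its difference was -0.088 (95% interval -0.23 to 0.05, adjusted p = 0.604), which allows at most a 1.17-fold change for the Daxx arrays together. In DaxxB alone Tbk1 differed by -0.14 (95% interval -0.31 to 0.02, limma adjusted p = 0.449). Without vector replicate 2 that difference was -0.17 (95% interval -0.29 to -0.045, limma adjusted p = 0.0564). Irf3 read 7.77 to 7.98 on the vector arrays and 7.79 to 7.89 on the Daxx arrays. The Irf3 difference was -0.0019 (95% interval -0.14 to 0.14, adjusted p = 0.99), which allows at most 1.10-fold for the Daxx arrays together. Its sign changed with the processing. For both genes the conditions overlapped.

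The RNA sensor Ifih1 and its adaptor Mavs did not pass with all arrays, although their conditions did not overlap. Ifih1 read 7.07, 7.17, 7.17 and 7.13 on the vector arrays, 6.94 and 7.02 on the DaxxA arrays, and 6.89 and 6.87 on the DaxxB arrays. The highest Daxx value lay just under the lowest vector value. Its difference was -0.20 (SE 0.055, 95% interval -0.33 to -0.08, adjusted p = 0.0878). Without vector replicate 2 Ifih1 was called at -0.19 (adjusted p = 0.0322), and it was also called at -0.20 when dim probe sets were left out (adjusted p = 0.0398) and at -0.20 with array quality weights (adjusted p = 0.0104). It passed in these 3 of 16 alternatives.

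Mavs, which sits on mitochondria and relays the signal of the RNA helicases, read 8.41, 8.48, 8.40 and 8.49 on the vector arrays and 8.57, 8.55, 8.62 and 8.58 on the Daxx arrays. The Daxx values all lay above the vector values, by a small distance. The difference was 0.13 (SE 0.049, 95% interval 0.02 to 0.24, adjusted p = 0.212). It was called in 1 of 16 alternatives, array quality weights (0.16, adjusted p = 0.0165).

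In all, 4 of the 8 genes had conditions that did not overlap, Cgas and Ifih1 with Daxx below and Sting1 and Mavs with Daxx above. This held for 14.8% of all genes, 6.79% with Daxx below and 8.02% with Daxx above.

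Zbp1 and Trex1 did not pass. Zbp1, the sensor of Z-form nucleic acids, read 6.38, 6.62, 6.43 and 6.35 on the vector arrays and 6.34 to 6.49 on the Daxx arrays. Its highest value came from vector replicate 2. The mean of Zbp1 over the 8 arrays, 6.42, was the lowest of the 8 genes and close to the guide to background of 6.07. The difference was -0.040 (95% interval -0.20 to 0.12, adjusted p = 0.804), and 0.017 without that array (adjusted p = 0.875). Trex1, the exonuclease that removes cytosolic DNA, read 7.19 to 7.26 on the vector arrays and 7.17 to 7.32 on the Daxx arrays. Its difference was -0.015 (95% interval -0.14 to 0.11, adjusted p = 0.904), which allows at most 1.10-fold for the Daxx arrays together.

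**Figure D2:**
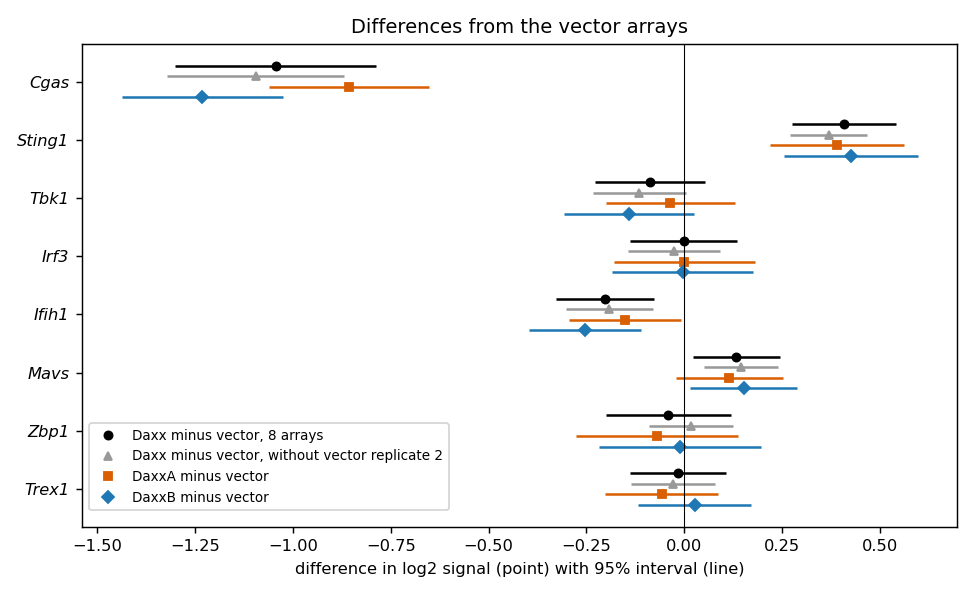
Difference in log2 signal from the vector arrays (horizontal axis, point) with its 95% interval from limma (line) for 8 genes, for Daxx with 8 arrays, Daxx without vector replicate 2, DaxxA and DaxxB; all are set against the vector arrays. Cgas lies at -1.04 and Sting1 at 0.41 with all arrays, and the intervals of Tbk1, Irf3, Zbp1 and Trex1 with all arrays include 0.

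The next comparison took DaxxA and DaxxB one at a time against the vector arrays, which both comparisons share. In DaxxA, Cgas fell by 0.86 (SE 0.088, 1.81-fold, adjusted p = 0.00409) and Sting1 rose by 0.39 (SE 0.073, adjusted p = 0.0463). In DaxxB, Cgas fell by 1.23 (SE 0.088, 2.35-fold, adjusted p = 0.000651) and Sting1 rose by 0.43 (SE 0.073, adjusted p = 0.0284). These 2 genes were the ones called of the 8 in each comparison, where 1.97% of all genes were called for DaxxA (0.522% rose, 1.45% fell) and 2.69% for DaxxB (0.767% rose, 1.92% fell).

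Some of these calls were lost when 1 array was left out, while the differences moved little. With any 1 array left out, Sting1 stayed between 0.35 and 0.42 in DaxxA and between 0.39 and 0.46 in DaxxB, and Cgas between -0.91 and -0.82 in DaxxA and between -1.32 and -1.14 in DaxxB. Sting1 was lost in DaxxA without vector replicate 1 (adjusted p = 0.161), 3 (0.0924) or 4 (0.107), without DaxxA replicate 1 (0.333) or 2 (0.456), and without DaxxB replicate 1 or 2 (0.121 each). In DaxxB it was lost without vector replicate 1 (adjusted p = 0.104), 3 (0.063) or 4 (0.0708), without DaxxA replicate 1 or 2 (0.078 each), and without DaxxB replicate 1 (0.234) or 2 (0.295). Sting1 kept its call in both without vector replicate 2. Cgas was lost in DaxxA without DaxxA replicate 1 (adjusted p = 0.0607) or 2 (0.0934), where the lone DaxxA array was assumed to vary like the other groups, and was called in DaxxB without any 1 array. With vector replicate 2 left out, 4 of the 8 genes were called in DaxxB, Cgas, Sting1, Ifih1 (-0.24, adjusted p = 0.00859) and Mavs (0.16, adjusted p = 0.04), beside 20.5% of all genes.

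DaxxA and DaxxB were then compared directly. None of the 8 genes was called by limma, and 0 of all genes were (0%). At an unadjusted p below 0.05 there was 1 of the 8 and 846 of all 19938 genes. The 1 gene was Cgas, which read 0.37 higher in DaxxA than in DaxxB (SE 0.101, 95% interval 0.14 to 0.61, unadjusted p = 0.007 from limma). Without vector replicate 2, which changes the shared estimate of spread and not the difference, Cgas was called (SE 0.064, adjusted p = 0.0291), beside 2.15% of all genes. For Sting1 the difference was -0.035 (95% interval -0.23 to 0.16). Cgas and Ifih1 had both DaxxB values below both DaxxA values, which in turn lay below all vector values. Such a stepwise order held for 2.06% of all genes.

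The 8 genes did not move together. Over the 8 arrays, which share 2 conditions, Pearson's r was -0.91 between Cgas and Sting1, -0.93 between Cgas and Mavs and 0.91 between Cgas and Ifih1. It was 0.06 between Cgas and Irf3 and 0.09 between Cgas and Zbp1, or 0.20 and -0.27 over the 7 arrays without vector replicate 2. These values are descriptions, and arrays of 1 condition share that condition's level.

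The genes whose values followed Cgas most closely over the 8 arrays were Camk2d, a calcium-dependent kinase (r = 0.994), Rnf170, a ubiquitin ligase of the endoplasmic reticulum (r = 0.993), Xist, the RNA that silences an X chromosome (r = 0.992), Epb41l3, a protein of the membrane skeleton (r = 0.992), and Pdcd4, an inhibitor of translation (r = 0.991). Epb41l3 had the largest difference of these 5, at 10.48, 10.27, 10.44 and 10.47 on the vector arrays, 9.497 and 9.56 on the DaxxA arrays and 9.29 and 9.37 on the DaxxB arrays. All 5 showed lower values on every Daxx array than on any vector array. Over the 7 arrays without vector replicate 2 the closest genes were Ccn3, a matricellular protein (r = 0.998), Pole, the catalytic subunit of DNA polymerase epsilon (r = 0.997), Hbp1, a transcriptional repressor (r = 0.997), Mpped2, a phosphoesterase (r = 0.996), and Rnf13, a ubiquitin ligase of endosomes (r = 0.996). None of the first 5 was among the second 5, although over the 7 arrays the first 5 still had r of 0.991 to 0.995. Over the 8 arrays the second 5 had r of 0.694 (Rnf13) to 0.981 (Ccn3). Over 8 arrays 213 genes, 1.07% of all, had an r above 0.95 with Cgas.

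**Figure D3:**
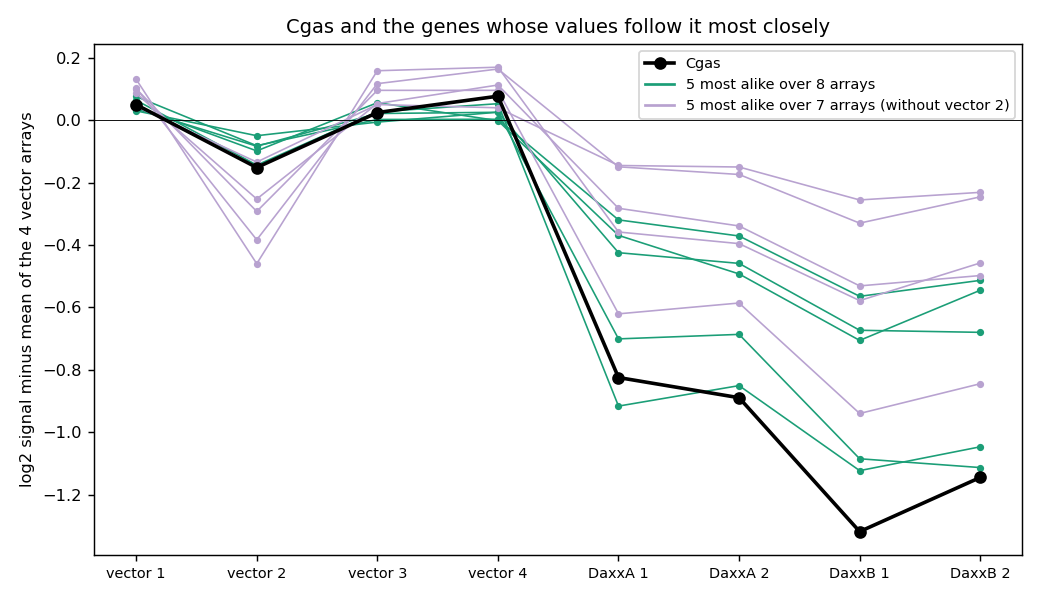
Log2 signal minus the mean of the 4 vector arrays (vertical axis) on each of the 8 arrays for Cgas (black), the 5 genes most alike over 8 arrays (green) and the 5 most alike over the 7 arrays without vector replicate 2 (purple); lines only join the values of 1 gene. The green genes are lower on every Daxx array than on any vector array, and the purple genes are lower on vector replicate 2 than on the other vector arrays.

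The other genes of the pathway were taken as 8 lists with 159 measured genes between them, the sensing genes above not counted. Of these, 4 rose, 23 fell and 132 did not pass (16.98% called, median difference -0.059), against 4.52% called and a median of -0.028 over all genes. The list of interferon target genes gave 11 of the 23 falls. Its direction was known from earlier results of these data, and the lists were chosen with those results known. The share called is thus a description and not independent support. With vector replicate 2 left out, 9 rose and 39 fell, where 12.8% of all genes were called (5.26% rose, 7.57% fell), and all 27 calls made with 8 arrays were made again. Leaving out any other array moved the count of 27 to between 8 (vector replicate 3) and 14 (DaxxB replicate 1). It was 9 without DaxxA replicate 1 or DaxxB replicate 2, 11 without vector replicate 1 or DaxxA replicate 2, and 12 without vector replicate 4. Calls over all genes fell too in these fits, from 902 to between 446 (DaxxB replicate 2) and 559 (vector replicate 4).

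DNA sensors and partners of STING held 28 measured genes, of which 1 rose, 0 fell and 27 did not pass (median 0.0021). The gene that rose was Lrrfip1, which binds nucleic acids in the cytosol, at 7.91, 7.75, 7.89 and 7.90 on the vector arrays and 8.35, 8.28, 8.22 and 8.14 on the Daxx arrays (0.38, SE 0.0655, adjusted p = 0.013). Aim2, the DNA sensor of an inflammasome, read 4.85 to 5.03 on the vector arrays and 4.89 to 4.99 on the Daxx arrays, below the guide to background. Leaving out vector replicate 2 gave 1 that rose and 3 that fell, with a median of -0.020.

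RNA sensors and partners of MAVS held 27 measured genes, of which 0 rose, 5 fell and 22 did not pass (median -0.076). Tlr3, the endosomal receptor for double-stranded RNA, fell from 8.60 to 8.67 on the vector arrays to 8.23 to 8.43 on the Daxx arrays (-0.32, SE 0.057, adjusted p = 0.0164). Ddx58, which encodes RIG-I, fell by 0.29 (SE 0.059, adjusted p = 0.0265), and its relative Dhx58, or LGP2, fell by 0.67 (SE 0.141, adjusted p = 0.0333). Dhx58 read 6.37 on vector replicate 2 and 6.90 to 7.06 on the other vector arrays. Oasl2, an oligoadenylate synthetase-like protein, fell by 0.52 (SE 0.110, adjusted p = 0.0339). Ifih1, the third helicase of this kind, had the same sign and did not pass with 8 arrays, as given above. In the fit of 7 arrays, without vector replicate 2, 2 genes of the list rose and 6 fell.

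Kinases and transcription factors below the adaptors held 16 measured genes, of which 2 rose, 1 fell and 13 did not pass (median 0.0015). Jun, a subunit of AP-1, rose by 0.38 (SE 0.070, adjusted p = 0.0175), and Tank, a scaffold of TBK1, rose by 0.29 (SE 0.054, adjusted p = 0.0216). Irf2, a repressor of interferon responses, fell by 0.24 (SE 0.053, adjusted p = 0.0421). Ikbke, the kinase most like TBK1, read 7.53 to 7.69 on the vector arrays and 7.49 to 7.60 on the Daxx arrays. In the fit of 7 arrays 3 rose and 1 fell, and the median was -0.0044.

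Nucleases and other enzymes that remove nucleic acids held 17 measured genes, of which 0 rose, 1 fell and 16 did not pass (median -0.011). Dnase2a, the lysosomal nuclease that degrades engulfed DNA, read 8.45, 8.44, 8.52 and 8.36 on the vector arrays and 8.03, 7.85, 8.04 and 7.98 on the Daxx arrays. It fell by 0.47 (SE 0.063, 1.38-fold, adjusted p = 0.00396). The conditions were well apart for this nuclease and overlapped for Trex1. Samhd1, which degrades deoxynucleotides, had a difference of -0.18 (adjusted p = 0.0957, or 0.03 without vector replicate 2). In that fit 5 genes of the list fell and 0 rose.

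Genes of cGAMP breakdown and transport held 19 measured genes, of which 0 rose, 1 fell and 18 did not pass (median 0.040). Lrrc8c, a subunit of volume-regulated anion channels, which let cGAMP pass, fell by 0.23 (SE 0.045, adjusted p = 0.0241). Enpp3, a relative of the cGAMP hydrolase Enpp1, had a difference of -0.34 (adjusted p = 0.117, or 0.00198 without vector replicate 2). In that fit 2 rose and 4 fell.

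The list for the death pathway below ZBP1, which also took in inflammatory caspases, held 12 measured genes. Of these 1 rose, 1 fell and 10 did not pass (median -0.062). Whether the called genes act below ZBP1 in these cells was not tested. In the fit of 7 arrays 1 rose and 1 fell, and the median was 0.0036. Casp4, the inflammatory caspase 11 of mice, read 8.01, 7.66, 8.24 and 8.13 on the vector arrays and 7.13 to 7.25 on the Daxx arrays. It fell by 0.81 (SE 0.114, 1.76-fold, adjusted p = 0.00462). Casp8, an initiator caspase that restrains necroptosis, rose by 0.38 (SE 0.069, adjusted p = 0.0186). The necroptosis kinase gene Ripk3 and its target Mlkl did not pass (0.11 and -0.013, adjusted p = 0.688 and 0.915).

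Interferon ligands, receptors and signalling genes held 17 measured genes, of which 0 rose, 3 fell and 14 did not pass (median -0.12). Ifnb1, the interferon that IRF3 induces first, read 5.01 to 5.12 on the vector arrays and 5.01 to 5.26 on the Daxx arrays, below the guide to background throughout. Irf9, the DNA-binding subunit of the interferon transcription factor, fell by 0.52 (SE 0.0805, adjusted p = 0.00805). Usp18, which dampens the interferon receptor, fell by 0.56 (SE 0.124, adjusted p = 0.0407), and the receptor subunit Ifnar2 fell by 0.27 (SE 0.062, adjusted p = 0.0491). In the fit of 7 arrays 4 fell and 0 rose.

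IRF3 and interferon target genes held 24 measured genes, of which 0 rose, 11 fell and 13 did not pass (median -0.32). All 24 differences were below 0, as were 11613 of all 19938 genes. Of the 24, 18 had a mean above the guide to background. Ifit1, which binds foreign RNA, read 7.53, 6.97, 7.56 and 7.66 on the vector arrays and 6.22, 6.28, 6.25 and 6.38 on the Daxx arrays. It fell by 1.15 (SE 0.140, 2.22-fold, adjusted p = 0.00219). Gbp7, a guanylate-binding protein, fell by 1.00 (SE 0.096, adjusted p = 0.000593), Ccl5, a chemokine, fell by 0.59 (SE 0.075, adjusted p = 0.00296), and Ifitm3, which blocks virus entry, fell by 0.44 (SE 0.0605, adjusted p = 0.00419). The DaxxA and DaxxB values of Ifit1 lay side by side, whereas those of Cgas were apart. The Ifit1 values, at 6.22 to 6.38, were close to the guide to background of 6.07. Whether a further step could be seen at that level was not tested. Those of Cgas were 6.68 to 7.17. The difference between the 2 genes was not tested. In the fit of 7 arrays 15 fell, 0 rose and 23 of the 24 differences were below 0, beside 8557 of all 19938 genes. Earlier results of these data had already shown this direction, so it is not independent support.

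**Figure D4:**
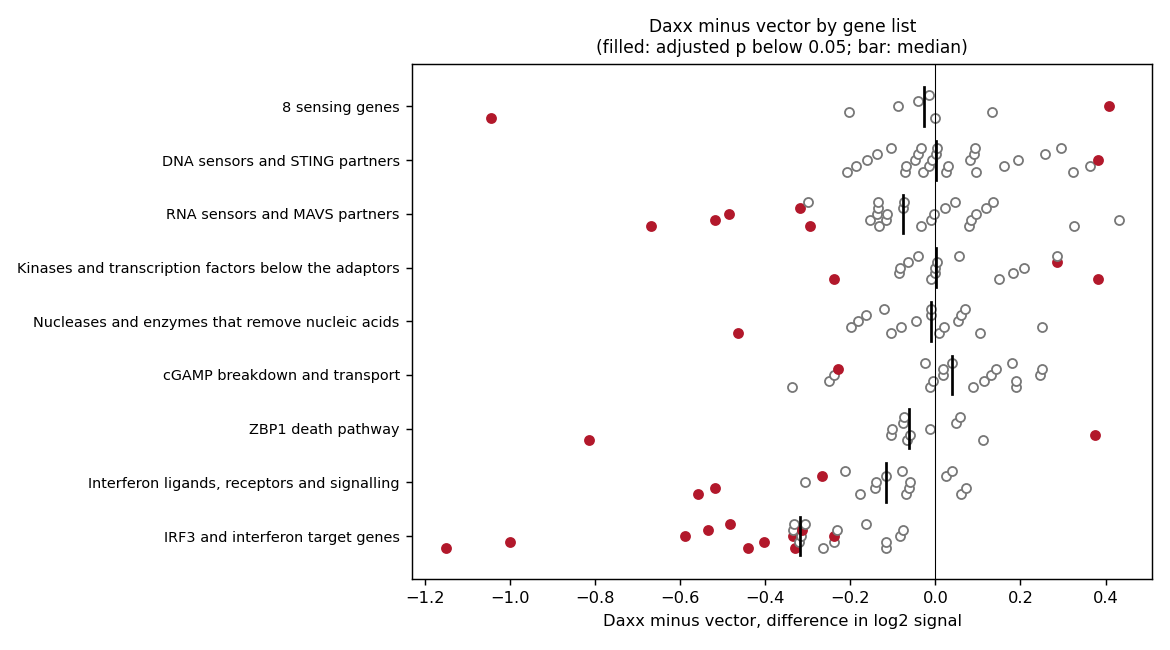
Daxx minus vector difference in log2 signal (horizontal axis) of each gene, with 4 arrays in each condition, for the 8 sensing genes and for 8 lists of other pathway genes; filled points had a limma adjusted p below 0.05 over all genes and the bar is the median of the list. All 24 interferon target genes lie below 0, the called RNA sensors and interferon signalling genes also lie below 0, and the kinases and the ZBP1 list have called genes on either side.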

How the data were processed

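The values are log2 signals that the authors deposited, made with Affymetrix Expression Console and RMA per the submitters' processing notes. RMA corrects background, quantile-normalizes the arrays and summarizes each probe set over its probes. Software versions and the build are not stated in those notes, and no detection calls were used. The number of arrays limits the precision.

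Of 35556 probe sets, 21789 had 1 gene symbol, 1621 several and 12146 none listed. For each gene the probe set with the highest mean was kept, which left 19938 genes. Differences were tested with limma 3.58.1 (R 4.3.3; lmFit, eBayes) with Benjamini-Hochberg adjustment over all genes. Daxx minus vector used 2 conditions. DaxxA, DaxxB and their difference used 3 groups with 1 shared spread. The fit was tested on simulated data. Promoters came from RefSeq (GRCm38.p6). The members and lists were chosen with earlier results of these data known. The named pathway genes were up to 4 called genes of each list by adjusted p. Aim2, Ikbke, Samhd1, Enpp3, Ripk3, Mlkl and Ifnb1 were added after their values were seen. The genes most like Cgas were the 5 with the highest r, after removal of predicted genes, small RNAs, olfactory receptors and segments of antigen receptors. Alternatives left out each array or changed weights, block, normalization, centring, dim filter, variance model, probe set rule and groups in the fit. The counts of each list without vector replicate 2 were added after seeing the data. Epithelial and endothelial marker lists had 0 of 8 and 0 of 7 genes called by limma, with 0 at an unadjusted p below 0.05 in either list.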

Additional observations from a re-analysis of the deposited data

Results flagged for a closer look

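The search covered 28 genes and left out those named as most like Cgas. Of 56 sets of 4 arrays (vector or Daxx for each gene), 3 had 1 array far from the other 3. Chance gives about 1 in 20. Among the sensing genes this was Trex1, which read 7.32 on DaxxB replicate 1 and 7.17 to 7.19 on the other Daxx arrays. The other 2 lay on vector replicate 2, where Lrrfip1 read 7.75 against 7.89 to 7.91 on the other vector arrays, and Usp18 read 6.77 against 7.24 to 7.33. Some genes left out of the search also read apart on vector replicate 2. Ccn3 read 9.32 there against 9.71 on the other vector arrays, and Mpped2 read 7.69 against 8.28 to 8.32. Both were named as most like Cgas without that array. How far vector replicate 2 differs thus cannot be read from the count of 3.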

How the results depend on the processing

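Cgas and Sting1 kept their direction in all 16 alternatives and their call in 15 each. Cgas ran from -1.12 to -0.95 and Sting1 from 0.37 to 0.48. The exception for both was the fit with the replicate number as a block (limma adjusted p = 0.0688 and 0.0677). Replicate numbers 3 and 4 occur only among the vector arrays. That fit therefore set the Daxx arrays against vector replicates 1 and 2 alone, so its lost calls cannot be read as an effect of pairing. With that replicate block 0 of the 8 genes were called in Daxx minus vector, 0 in DaxxA and 0 in DaxxB, 1 pathway gene and 162 of all genes. The numbers do not pair the arrays by the labels. The deviations of arrays 1 and 2 correlated at 0.133 (vector and DaxxA), 0.0369 (vector and DaxxB) and 0.0963 (DaxxA and DaxxB). Of 12 comparisons 11 matched best with their own number, at r of 0.162 or less. In groups of 2 arrays 1 deviation is the negative of the other, so these comparisons repeat each other. Their count cannot show pairing, and no conclusion is drawn from it. Array quality weights, which gave vector replicate 2 a weight of 0.0521, called 4 of the 8 genes in Daxx minus vector, 55 pathway genes and 3231 of all genes. They called 4 of the 8 in DaxxB and 1 between DaxxA and DaxxB. For the block and the weights, shares of all genes in DaxxA, in DaxxB and between them are not given. Those counts of the 8 thus have no background to be set against. Quantile normalization again called 1427 of all genes. With array medians subtracted, Cgas kept its call in DaxxA and in DaxxB. Sting1 lost it, at 0.44 in DaxxA (limma adjusted p = 0.0727) and 0.42 in DaxxB (limma adjusted p = 0.0665). Leaving out 1 array gave 2 to 3 of the 8 called in Daxx minus vector, 8 to 48 pathway genes and 446 to 2558 of all genes, against 902. What leaving out 1 array did in DaxxA, in DaxxB and between them is given above by gene. Differences near 0 changed sign. Irf3 ran from -0.027 to 0.043 with 1 array left out, and was 0.046 with the block and 0.020 with medians subtracted. Trex1 ran from -0.050 to 0.00032 with 1 array left out, and was 0.0081 with the block, 0.0021 after quantile normalization and 0.0071 with medians subtracted. Zbp1 ran from -0.072 to 0.017 with 1 array left out, and was 0.0068 with array weights and 0.0017 after quantile normalization. The causes were not tested. Signals near background, such as Ifnb1, Aim2, Zbp1 and, on the Daxx arrays, Ifit1, may limit what differences can be seen.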
